A study of Homo sapiens with 14 samples.

Results

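The SR proteins and the heterogeneous nuclear ribonucleoproteins (hnRNPs) are the 2 large families of RNA-binding proteins that steer splice site choice. Their transcripts were followed in PANC-1, a human pancreatic cancer cell line, exposed to proanthocyanidins (PA, plant polyphenols) or to the vehicle DMSO. Members were all protein-coding genes of the table of counts with a symbol made of SRSF and a number, or of HNRNP and further letters or digits. This gave 31 of 28120 genes, 11 of them SRSF genes (SRSF1 and SRSF3 to SRSF12) and 20 HNRNP genes; other members of the families were not analysed here. The 7 groups of 2 libraries each were PA at 20 µg/ml for 3, 12 and 24 h, and DMSO for 0, 3, 12 and 24 h. PA was given at a single dose to a single cell line in monolayer culture. Biological replication is named in the design, but nothing says that the libraries came from separate cultures, so p-values measure the spread between these libraries, which may be technical.

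SR proteins carry 1 or more RNA recognition motifs and a tail rich in arginine and serine, and they mostly promote the use of exons to which they bind. Kinases phosphorylate this tail, which sets where in the nucleus an SR protein sits and when it acts. The hnRNPs coat nascent transcripts and often, though not always, repress nearby splice sites, so that an exon's fate can depend on the balance of both families. Many genes of both families also limit their own output by splicing in an exon that sends their transcript to nonsense-mediated decay. The values here are reads per gene, which do not tell a productive transcript from such a decay-prone one.

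Each library held 26403984 to 35213154 reads in genes, and all 31 members were among the 15181 genes that passed the filter on low counts. Levels are given as CPM, counts scaled to the library's total of reads in genes after TMM normalization. They are shares of each library, so fewer cells and less RNA per cell cannot be told apart. The labelled cell line was checked by its markers. KRT8, KRT18 and KRT19 keratins and VIM were abundant in every library (from 519 CPM upwards). KRT7 was low at 6.3 to 21 CPM, and EPCAM stayed at or under 7.79 CPM and CDH1 at or under 1.34 CPM. The summed level of the 7 carcinoma markers was 8815 to 23490.3 CPM in PA libraries and 7089 to 8141 CPM in DMSO libraries. Of 6 fibroblast, 5 leukocyte and 5 endothelial markers, 5, 3 and 4 were under 1 CPM in every library; the sums were 20.5 to 29.5, 47.3 to 83 and 0.458 to 1.26 CPM in PA libraries, and 8.49 to 27.2, 33.3 to 47.4 and 0.639 to 1.39 CPM in DMSO libraries. Of the listed markers, PTPRC, CD3E, COL1A2, DCN, PECAM1, CDH5 and VWF were at or near 0. Most of the fibroblast and leukocyte sums came from COL1A1 and CD68, while CD14 reached 5.22 CPM and KDR 1.15 CPM. The part of these markers in the results was not tested.

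Libraries also differed in how read counts depended on the GC content of the transcripts, and this touches most of what follows. The slope of log2 CPM on GC content, relative to each gene's mean, was 0.03 to 0.58 per 10 percentage points of GC in the 6 PA libraries and -0.32 to -0.06 in the 8 DMSO libraries. The members are poor in GC: the median over the longest annotated transcripts was 40.9% in SRSF and 42.2% in HNRNP genes, against 48.8% in all tested genes with a transcript (n = 15071). Changes are therefore given as counted and also after a correction that removed each library's trend on GC content and transcript length. The trend moves with PA exposure, and its part in the results was not tested beyond that correction.

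**Figure D1:**
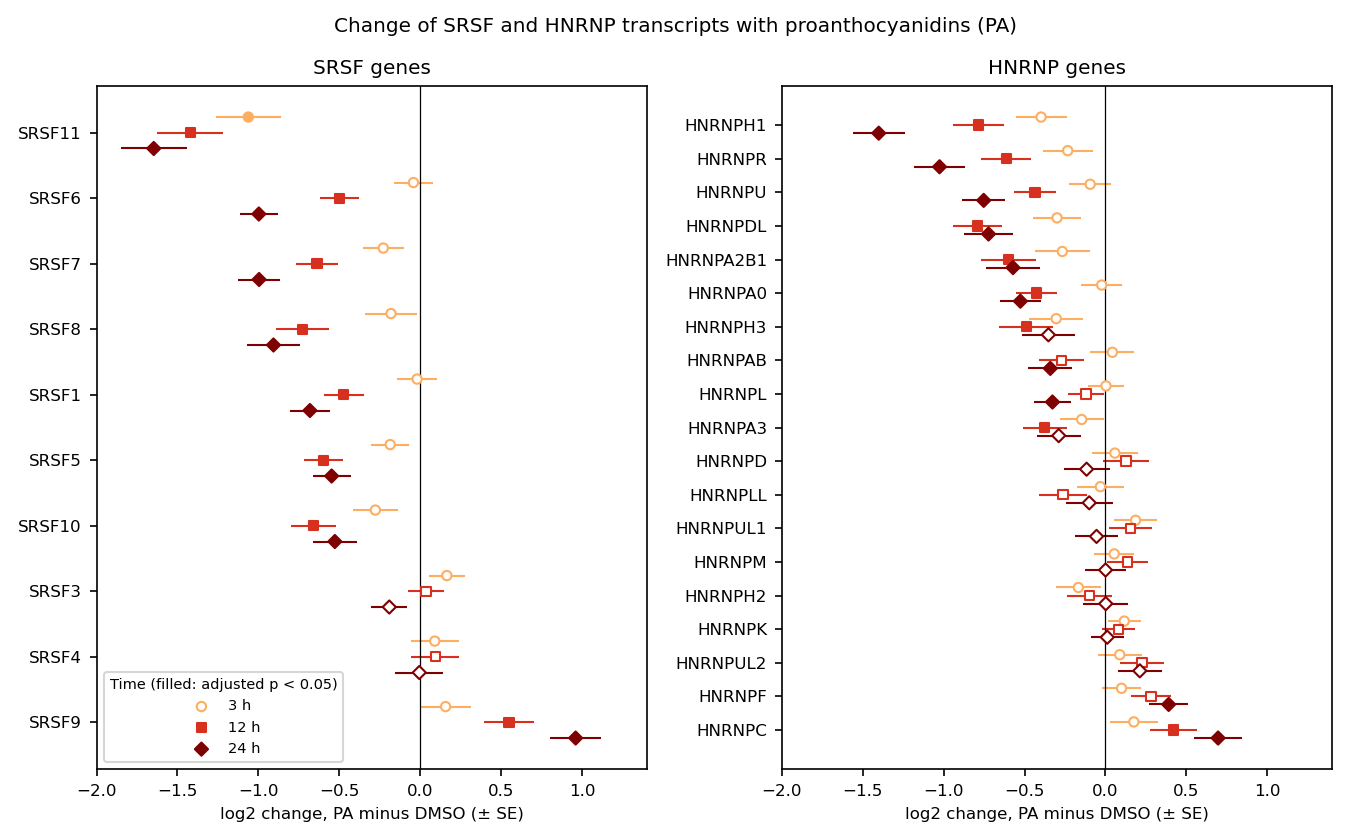
Log2 change with PA (x axis, PA minus DMSO, ± SE) of the 10 SRSF genes (left) and 19 HNRNP genes (right) with at least 5 CPM on average, at 3, 12 and 24 h; filled symbols mark adjusted p under 0.05. Most called genes lie below 0, while SRSF9, HNRNPC and HNRNPF lie above 0.

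At 3 h, SRSF11 was the only member called as counted (3.23% of the 31), and it was lower. With 2 libraries a group, members that were not called may still have changed. SRSF11 encodes an SR protein known to contact the factors that recognise the 3′ splice site, and it lies at chr1:70205682-70253052 on the plus strand (GRCh38). It had 143 and 197 CPM in PA libraries, against 325 and 386 CPM in DMSO libraries, a 2.09-fold lower level (log2 change -1.06 ± 0.20, SE; adjusted p = 0.0174, edgeR quasi-likelihood test). Both PA libraries were below both DMSO libraries. Among all tested genes, 1.72% were called at this time, 1.58% lower and 0.138% higher. The call was lost without the first PA library (log2 change -0.84) and without the first or the second DMSO library (-1.18 and -0.92). Leaving out a library also makes its group smaller, so a call can be lost without that library carrying the change. After the GC and length correction it stayed lower (log2 change -0.64, adjusted p = 0.00771). With that correction SRSF3 was also called, higher, beside backgrounds of 2.54% lower and 1.79% higher. None of the 20 HNRNP genes was called at 3 h by edgeR or by DESeq2. HNRNPH1 alone had an unadjusted p under 0.05 (background 17.1%), at a log2 change of -0.40 ± 0.16 (SE). The median log2 change was -0.04 over the SRSF genes and -0.02 over the HNRNP genes, against -0.01 over all tested genes.

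At 12 h, 8 of 11 SRSF genes had changed, 7 of them lower and SRSF9 higher. In the HNRNP family 9 of 20 had changed, 8 lower and HNRNPC higher. Among all tested genes 48.5% were called, 24.1% lower and 24.4% higher, and the share called lower was 63.6% in SRSF genes and 40% in HNRNP genes. The median log2 change was -0.60 over the SRSF genes and -0.27 over the HNRNP genes, against 0.01 over all tested genes. The PA pair lay wholly below the DMSO pair for 8 SRSF and 12 HNRNP genes, where the background is 37.9%, and above both for 1 SRSF and 5 HNRNP genes, where it is 37.2%. The GC and length correction changed this picture. It left 3 SRSF genes higher and 3 lower (median -0.02), and 9 HNRNP genes higher and 5 lower (median 0.28), so the direction of the families at 12 h depended on that scaling. The backgrounds after correction were 22.5% higher and 17.6% lower.

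At 24 h the counts were alike, with 8 SRSF genes changed (7 lower, 1 higher) and 10 HNRNP genes changed (8 lower, 2 higher). Of all tested genes 54.6% were called, 27.5% lower and 27.2% higher. The 8 SRSF genes were those called at 12 h, each in the same direction. In the HNRNP family 7 genes were called at both times in the same direction. As counted, HNRNPA3 and HNRNPH3 were called at 12 h alone, and HNRNPAB, HNRNPF and HNRNPL at 24 h alone. The family medians were -0.55 (SRSF) and -0.31 (HNRNP), against -0.01 over all tested genes. Both PA libraries were below both DMSO libraries for 8 SRSF and 11 HNRNP genes (background 40.2%) and above both for 1 SRSF and 3 HNRNP genes (background 38.9%). After the GC and length correction 3 SRSF genes were higher and 4 lower (median -0.14), and 7 HNRNP genes were higher and 6 lower (median 0.24), beside backgrounds of 27% and 22.4%. On the log2(RPKM + 1) scale, the median of all genes was itself shifted to -0.24 at 24 h. There 1 of 19 HNRNP genes was higher and 15 were lower at 24 h, and 0 and 11 at 12 h. Of the 11040 genes tested on that scale, 2357 were higher and 4844 lower at 24 h, and 2753 and 3819 at 12 h.

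**Figure D2:**
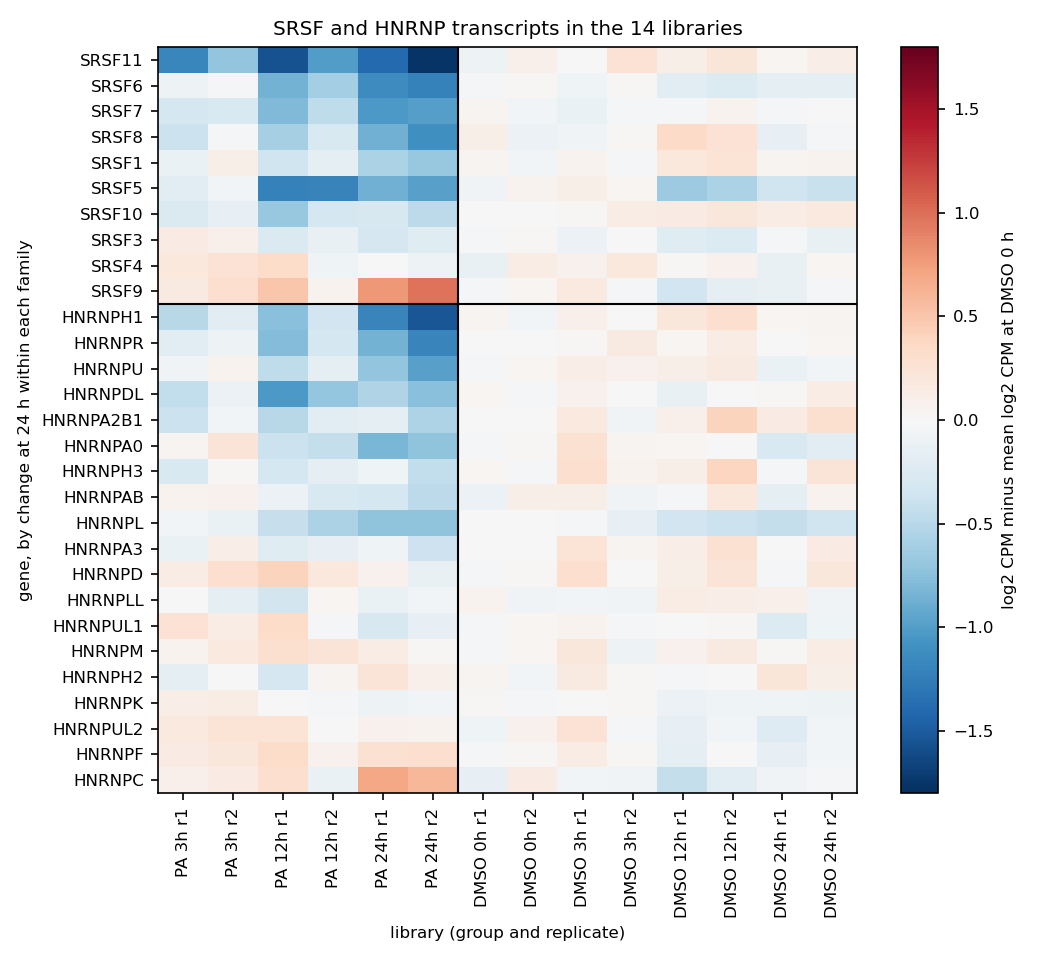
Level of each member with at least 5 CPM on average (rows; SRSF above, HNRNP below the line) in the 14 libraries (columns; PA left, DMSO right, r1 and r2 the replicates), as log2 CPM minus the mean at DMSO 0 h. Blue cells, below the 0 h level, gather in the PA 12 h and 24 h columns, with SRSF9 and HNRNPC red at 24 h and SRSF5 also lower in DMSO at 12 h.

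Among SRSF genes the fall of SRSF11 was the largest at every time as counted, while after the GC and length correction at 12 h that of SRSF5 was larger (-0.66, against -0.47 for SRSF11). It had 108 and 161 CPM in PA libraries, against 348 and 374 CPM in DMSO libraries at 12 h, a 2.68-fold lower level (log2 change -1.42 ± 0.20, SE; edgeR adjusted p = 0.000169). By 24 h it had 122 and 95.1 CPM in PA libraries, against 329 and 352 CPM in DMSO libraries, a 3.13-fold lower level (log2 change -1.65 ± 0.20; adjusted p = 3.84e-05). The DMSO libraries at 0 h held 301 and 345 CPM, within the range of the later DMSO libraries or just below it, so the low values were those of PA libraries. After the GC and length correction its change was -0.47 at 12 h and -0.73 at 24 h, smaller than uncorrected but still called. Per length, SRSF11 stood mid-family in DMSO libraries at 72.7 RPKM on average, below SRSF4 (124 RPKM), SRSF1 (123 RPKM), SRSF7 (105 RPKM) and SRSF3 (78.1 RPKM); the ranges of SRSF4 and SRSF1 over the 8 DMSO libraries overlapped.

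SRSF1, the classical SR protein that binds purine-rich exonic enhancers and can act as an oncogene, had 302 and 347 CPM in PA libraries, against 441 and 460.3 CPM in DMSO libraries at 12 h. It had at 24 h 262 and 241 CPM in PA libraries, against 402 and 405 CPM in DMSO libraries, a 1.6-fold lower level (log2 change -0.68 ± 0.12, SE; adjusted p = 0.000522, edgeR). PA and DMSO libraries did not overlap at either time. The 12 h call (log2 change -0.47) was lost without the first PA library, at -0.37 (adjusted p = 0.0514). After the GC and length correction neither time was called, at log2 changes of 0.18 and -0.05. SRSF9, the closest relative of SRSF1, went the other way. It had 94.1 and 70.1 CPM in PA libraries, against 52.9 and 59.3 CPM in DMSO libraries at 12 h, and 115 and 131 CPM in PA libraries, against 60.9 and 65.9 CPM in DMSO libraries at 24 h, a 1.95-fold higher level (log2 change 0.96 ± 0.16, SE; adjusted p = 0.000252). Its change at 12 h (log2 0.55) was 0.33 (adjusted p = 0.119) without the first PA library and 0.45 (adjusted p = 0.095) without the first DMSO library. With the correction SRSF9 remained higher at 24 h (log2 change 0.68, adjusted p = 6.94e-05) and missed the threshold at 12 h (0.26, adjusted p = 0.0563). The SRSF9 gene at chr12:120461668-120469793 overlaps GATC on the other strand, and whether counting used strand is not given in the sources used here.

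SRSF3 and SRSF7, small SR proteins that also act as adaptors for mRNA export, behaved differently from each other. SRSF7 had 159 and 201 CPM in PA libraries, against 270.3 and 289 CPM in DMSO libraries at 12 h. It had 135 and 139.5 CPM in PA libraries, against 273 and 275 CPM in DMSO libraries at 24 h, a 1.99-fold lower level (log2 change -1.0 ± 0.13, SE; adjusted p = 5.06e-05, edgeR). SRSF3 had 315 and 346 CPM in PA libraries, against 325 and 320.2 CPM in DMSO libraries at 12 h, where the groups overlapped, and 307 and 325 CPM in PA libraries, against 373 and 347 CPM in DMSO libraries at 24 h. The SRSF3 changes of 0.04 ± 0.11 and -0.19 ± 0.11 (log2, SE) did not pass the test. The correction placed SRSF3 higher at all 3 times (0.57, 0.96 and 0.69, adjusted p = 0.0454, 0.000153 and 0.00142). SRSF7 was then called lower at 24 h only (-0.40, against -0.02 at 12 h).

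SRSF4, SRSF5 and SRSF6 share a layout with a pair of RNA recognition motifs, and 2 of these 3 genes fell. SRSF6 had 178 and 211 CPM in PA libraries, against 278 and 271 CPM in DMSO libraries at 12 h. At 24 h it had 147 and 139 CPM in PA libraries, against 284 and 287 CPM in DMSO libraries, a 2-fold lower level (log2 change -1.0 ± 0.12, SE; adjusted p = 2.95e-05, edgeR). With the GC and length correction the sign of SRSF6 turned at 12 h (0.39, adjusted p = 0.018), and at 24 h it was not called (-0.14). SRSF5, an SR protein first described in rat as an insulin-induced gene, fell by similar amounts with and without the correction. Its log2 change was -0.60 uncorrected and -0.66 corrected at 12 h, and -0.55 and -0.55 at 24 h, called each time. SRSF5 also fell with time in DMSO alone: it had 130.0 and 138 CPM at DMSO 12 h, against 196 and 214 CPM at DMSO 0 h (log2 change -0.61 ± 0.12, SE; adjusted p = 0.0233, edgeR). That call was lost without any 1 of the 4 libraries (adjusted p = 0.0822 to 0.351), though the change stayed between -0.67 and -0.55. SRSF4 did not pass the test at any time, with log2 changes of 0.09, 0.09 and -0.01 at 3, 12 and 24 h.

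SRSF10, known as a splicing repressor once dephosphorylated in heat shock and mitosis, had 92.2 and 119 CPM in PA libraries, against 163 and 170.4 CPM in DMSO libraries at 12 h (log2 change -0.66 ± 0.14, SE; adjusted p = 0.00187, edgeR). By 24 h it had 121 and 107 CPM in PA libraries, against 163 and 167 CPM in DMSO libraries, a log2 change of -0.53. The 24 h call was lost without the second PA library, at -0.44 (adjusted p = 0.0599). SRSF10 is the SRSF gene with the lowest GC content (36.2%), and after the correction it was called higher at both times (0.47 and 0.50). SRSF8 had 35 and 44.2 CPM in PA libraries, against 67.5 and 63.5 CPM in DMSO libraries at 12 h (log2 change -0.73 ± 0.16; adjusted p = 0.00294). It was lower at 24 h too (-0.91), and stayed called lower after correction (-0.31 and -0.43). SRSF12 held only 2 to 16 reads per library, so no fold is given for it.

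Among the HNRNP genes HNRNPH1 had the largest fall at 24 h, and HNRNPDL and HNRNPH1 had falls of about the same size at 12 h. Its protein binds runs of G next to exons, as do its relatives of the H and F group, and the gene lies at chr5:179614178-179634784 on the minus strand. HNRNPH1 had 424 and 520.5 CPM in PA libraries, against 639 and 605 CPM in DMSO libraries at 3 h. It had 358 and 473 CPM in PA libraries, against 692 and 737 CPM in DMSO libraries at 12 h (log2 change -0.78 ± 0.16, SE; adjusted p = 0.0015, edgeR). It had at 24 h 263 and 206 CPM in PA libraries, against 616 and 624 CPM in DMSO libraries, a 2.64-fold lower level (log2 change -1.40 ± 0.16; adjusted p = 2.11e-05). PA libraries were below DMSO libraries at all 3 times. With a GC content of 51.6%, HNRNPH1 hardly moved with the correction (-0.89 at 12 h and -1.45 at 24 h, both called). HNRNPF, which binds the same G runs, was not called as counted at 12 h (log2 change 0.28). Corrected, it was called higher there (0.27, edgeR adjusted p = 0.0478). At 24 h HNRNPF was called higher as counted (log2 change 0.39 ± 0.12, edgeR adjusted p = 0.0149), with 0.43 corrected. That call was lost without the second PA library, at 0.38 (adjusted p = 0.0675), and without the first DMSO library, at 0.34 (adjusted p = 0.105). HNRNPH2 had log2 changes of -0.10 and 0.00 at 12 and 24 h and did not pass the test; corrected, it was called higher at both times (0.38 and 0.47, adjusted p = 0.00606 and 0.000944). Reads that HNRNPH1 and HNRNPH2 share in near-identical stretches could have been split by the counting, and a readthrough of RPL36A and HNRNPH2 is counted in a row of its own. HNRNPH3 fell at 12 h (log2 change -0.49 ± 0.17; adjusted p = 0.0261), a call lost at -0.41 (adjusted p = 0.112) without the first PA library and at -0.36 (adjusted p = 0.196) without the second DMSO library; its corrected change was 0.24.

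HNRNPC was the HNRNP gene that rose the most. Its protein forms the core of the particle on nascent RNA, binds U tracts and shields cryptic exons. HNRNPC had 1091 and 822 CPM in PA libraries, against 660.1 and 769 CPM in DMSO libraries at 12 h (log2 change 0.42 ± 0.15, SE; adjusted p = 0.0299, edgeR). At 24 h it had 1443 and 1342 CPM in PA libraries, against 849 and 870.1 CPM in DMSO libraries, a 1.62-fold higher level (log2 change 0.70 ± 0.15; adjusted p = 0.00146). The 12 h value was 0.21 (adjusted p = 0.296) without the first PA library and 0.30 (adjusted p = 0.213) without the first DMSO library. The GC content of HNRNPC is low (39.2%), as in most members, and the correction gave 1.43 at 12 h and 1.59 at 24 h.

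HNRNPU, HNRNPR and HNRNPDL were lower at both late times. HNRNPU, a chromatin-bound scaffold factor that also affects the U2 snRNP, had 1058 and 1299 CPM in PA libraries, against 1560.0 and 1625 CPM in DMSO libraries at 12 h. By 24 h it had 884 and 739 CPM in PA libraries, against 1328 and 1405 CPM in DMSO libraries (log2 change -0.75 ± 0.13, SE; adjusted p = 0.000388, edgeR). At 12 h its change of -0.43 lost the call without the first PA library, at -0.29 (adjusted p = 0.118), and without the first or second DMSO library, at -0.47 (adjusted p = 0.0536) and -0.41 (adjusted p = 0.0801). After the GC and length correction HNRNPU stood at 0.29 at 12 h, called higher, and at -0.02 at 24 h, not called. HNRNPR had 403 and 554 CPM in PA libraries, against 708 and 757 CPM in DMSO libraries at 12 h (log2 change -0.61), which became -0.40 (adjusted p = 0.0503) without the first PA library. It had at 24 h 380.4 and 302 CPM in PA libraries, against 686 and 703 CPM in DMSO libraries, a 2.04-fold lower level (log2 change -1.03 ± 0.16; adjusted p = 0.000149). HNRNPR has the lowest GC content of all members (35.3%) and a long transcript (7646 nt); corrected, it was called higher at 12 h (0.71) and not called at 24 h (0.17). HNRNPDL had 210.4 and 266 CPM in PA libraries, against 393 and 431 CPM in DMSO libraries at 12 h, a 1.73-fold lower level (log2 change -0.79 ± 0.15; adjusted p = 0.00106). It had 298 and 256 CPM in PA libraries, against 438 and 475 CPM in DMSO libraries at 24 h (log2 change -0.72 ± 0.15; adjusted p = 0.00126), and stayed called lower after correction (-0.45 and -0.31).

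HNRNPA2B1, which binds RNA in sorting and processing and has been linked to methylated adenosine, was the most abundant member per length (1027 RPKM on average in DMSO libraries, against 344 RPKM for the next, HNRNPAB, with no overlap of their ranges). HNRNPA2B1 had 2559 and 3128 CPM in PA libraries, against 3847 and 4758 CPM in DMSO libraries at 12 h (log2 change -0.60 ± 0.17, SE; adjusted p = 0.0105, edgeR). It had 3199 and 2465 CPM in PA libraries, against 4001 and 4416 CPM in DMSO libraries at 24 h (log2 change -0.57 ± 0.17; adjusted p = 0.0112). Both calls were lost when certain single libraries were left out. At 12 h the change was -0.45 (adjusted p = 0.0636) without the first PA library and -0.44 (adjusted p = 0.111) without the second DMSO library; at 24 h it was -0.40 (adjusted p = 0.126) without the second PA library and -0.50 (adjusted p = 0.0714) without the second DMSO library. Corrected, it was 0.37 and 0.32, not called. The gene overlaps CBX3 and NFE2L3 on the other strand. HNRNPA0, known for binding AU-rich mRNA under stress signalling, was lower at 12 h (-0.43; -0.41 (adjusted p = 0.0677) without the first DMSO library) and at 24 h (-0.53), and HNRNPA3 at 12 h (-0.38). The HNRNPA3 call was lost without the first PA library, at -0.33 (adjusted p = 0.118), and without the first or second DMSO library, at -0.46 (adjusted p = 0.0599) and -0.31 (adjusted p = 0.184). Both genes turned positive after correction at 12 h (0.44 and 0.80, the second called higher). HNRNPA1L2, an intron-less gene with near-identical copies elsewhere, held 19 to 48 reads per library, and its assignment is uncertain.

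HNRNPAB and HNRNPL, both rich in GC (54.2% and 55.3%), were lower at 24 h, and the correction made them lower still. At 12 h neither was called as counted (-0.27 and -0.12). Corrected, both were called lower at 12 h (-0.64 and -0.53, edgeR adjusted p = 0.00028 and 0.000357). The values that follow are those of 24 h. HNRNPL, which binds CA repeats, changed by -0.33 ± 0.11 (log2, SE; adjusted p = 0.0233, edgeR) and by -0.74 corrected. HNRNPAB changed by -0.34 ± 0.14 (adjusted p = 0.0478) and by -0.72 corrected. The HNRNPL call was lost without any 1 of the 4 libraries of that time: -0.32 (adjusted p = 0.0843) and -0.33 (adjusted p = 0.084) without the first and second PA library, and -0.37 (adjusted p = 0.0615) and -0.29 (adjusted p = 0.121) without the first and second DMSO library. HNRNPAB had -0.42 (adjusted p = 0.0624) and -0.27 (adjusted p = 0.233) without the first and second PA library, and -0.22 (adjusted p = 0.301) without the second DMSO library. HNRNPL also had low p-values for its fall over time in DMSO alone (log2 change -0.40 at 24 h, edgeR adjusted p = 0.0819; DESeq2 adjusted p = 0.0341).

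The remaining HNRNP genes did not pass the uncorrected test at any time, though several were called after the correction. HNRNPK, which binds C-rich RNA and DNA, had 968 and 938 CPM in PA libraries, against 889 and 913 CPM in DMSO libraries at 12 h, and 904 and 924 CPM in PA libraries, against 911 and 903 CPM in DMSO libraries at 24 h. Its log2 changes were 0.08 ± 0.10 and 0.01 ± 0.10 (SE), the narrowest errors of all members. Corrected, HNRNPK was called higher at both times (0.62 and 0.54), and on the log2(RPKM + 1) scale it was called lower at 24 h (-0.31). HNRNPD, which directs the decay of AU-rich mRNA, changed by 0.13 and -0.12 at 12 and 24 h, and was called higher after correction (0.72 and 0.44, adjusted p = 0.00361 and 0.0446, edgeR). HNRNPLL, the HNRNPL relative known from T cells, changed by -0.26 and -0.10, and was called higher after correction (0.69 and 0.82, adjusted p = 0.00165 and 0.00028). HNRNPM, a GU-binding regulator of exons switched in epithelial-mesenchymal transition, changed by 0.14 and 0.00; corrected, it was -0.24 at 12 h, not called, and -0.37 at 24 h, called lower (adjusted p = 0.0139). HNRNPUL1 changed by 0.16 and -0.06, and was called lower after correction (-0.24 and -0.42, adjusted p = 0.035 and 0.00082). HNRNPUL2 changed by 0.22 and 0.21, and was not called after correction either (0.14 and 0.19).

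The 12 h count of HNRNP genes called with PA moved with single libraries, though each such fit also had a smaller group. The share of all tested genes called in each such fit is not given here, so the moves cannot be read as a trait of the family. The median log2 change of the HNRNP genes at 12 h was -0.25 without the first and -0.34 without the second PA library. It was -0.33 without the first and -0.22 without the second DMSO library, beside -0.27 with all libraries. The first PA library at 12 h had the steepest GC slope of all libraries (0.58), and the second PA library one of 0.12. At 24 h the HNRNP median was -0.37 without the first and -0.16 without the second PA library. It was -0.37 without the first and -0.21 without the second DMSO library, beside -0.31. The SRSF median lay between -0.65 and -0.47 at 12 h (beside -0.60) and between -0.74 and -0.49 at 24 h (beside -0.55).

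**Figure D3:**
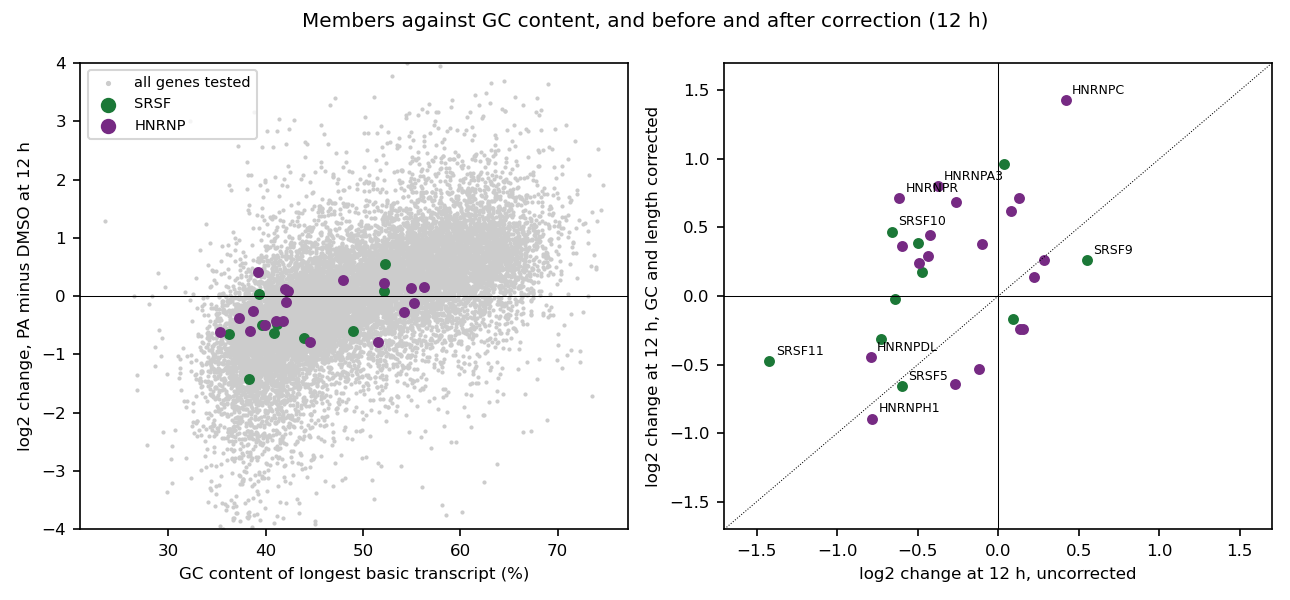
Left, log2 change at 12 h (PA minus DMSO) against GC content (%) for all tested genes (grey), SRSF genes (green) and HNRNP genes (purple). Right, the members' log2 change at 12 h before (x axis) and after (y axis) the GC and length correction, with the dotted line marking equal values; HNRNPH1, SRSF5, SRSF11 and HNRNPDL are below 0 on both axes, HNRNPR, SRSF10 and HNRNPA3 are not.

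Across all tested genes the 12 h change correlated with GC content (Pearson's r = 0.58, Spearman's rho = 0.64, n = 15071 genes, which are not independent replicates and share the same 4 libraries). At 24 h it was r = 0.53 and rho = 0.58. Across the 29 members with at least 5 CPM on average it was r = 0.43 and rho = 0.43 at 12 h, and r = 0.32 and rho = 0.37 at 24 h. By family, r was 0.63 in 10 SRSF and 0.31 in 19 HNRNP genes at 12 h, and 0.68 and 0.09 at 24 h. With log2 transcript length, r was -0.63 in SRSF and -0.28 in HNRNP genes at 12 h, and -0.75 and -0.30 at 24 h. Over all tested genes it was -0.19 at each time. Of the 8 SRSF genes called at 12 h, the correction left SRSF5, SRSF8 and SRSF11 called in the same direction, turned SRSF6 and SRSF10 to called higher, and left SRSF1, SRSF7 and SRSF9 not called. Of the 9 HNRNP genes it left HNRNPC, HNRNPDL and HNRNPH1 called in the same direction, turned HNRNPA3, HNRNPR and HNRNPU to called higher, and left HNRNPA0, HNRNPA2B1 and HNRNPH3 not called. At 24 h, 5 of 8 SRSF genes (SRSF5, SRSF7, SRSF8, SRSF9 and SRSF11) and 6 of 10 HNRNP genes (HNRNPAB, HNRNPC, HNRNPDL, HNRNPF, HNRNPH1 and HNRNPL) remained called in the same direction. SRSF10 was turned to called higher at 24 h. HNRNPA0, HNRNPA2B1 and HNRNPR turned positive at 24 h (0.30, 0.32 and 0.17) and were not called, and SRSF1, SRSF6 and HNRNPU stayed below 0 and were not called.

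**Figure D4:**
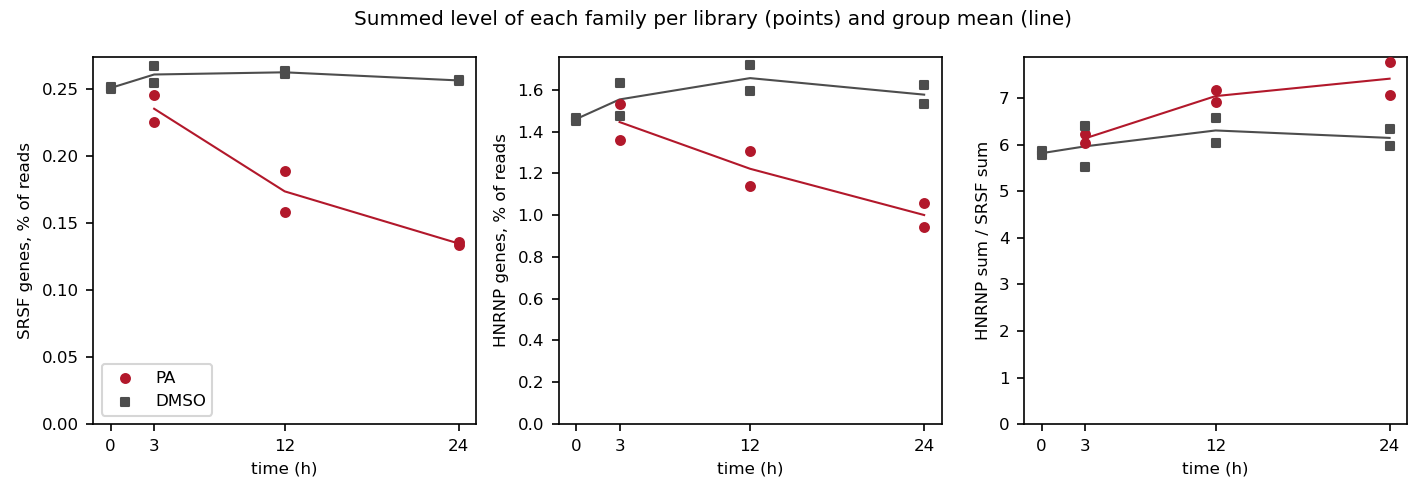
Summed reads of the 11 SRSF genes (left) and the 20 HNRNP genes (middle) as % of all reads in genes, and the ratio of the sums (right), by time in hours; red circles are PA libraries, grey squares DMSO libraries and lines group means. The PA libraries are below the DMSO libraries at 12 and 24 h in both sums, and above them in the ratio.

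Summed over the family, SRSF transcripts took 0.159 and 0.189% of reads in PA libraries, against 0.264 and 0.262% in DMSO libraries at 12 h. At 24 h they took 0.136 and 0.133% in PA libraries, against 0.257 and 0.256% in DMSO libraries. HNRNP transcripts took 1.14 and 1.31% in PA libraries, against 1.59 and 1.72% in DMSO libraries at 12 h. At 24 h they took 1.06 and 0.942% in PA libraries, against 1.53 and 1.62% in DMSO libraries. HNRNPA2B1 alone made up 20.4 to 29.4% of the HNRNP sum in the 14 libraries. The HNRNP to SRSF ratio was 7.17 and 6.91 in PA libraries and 6.04 and 6.57 in DMSO libraries at 12 h. At 24 h the ratio was 7.77 and 7.06 in PA libraries and 5.96 and 6.33 in DMSO libraries. PA and DMSO libraries did not overlap in any of these sums or ratios at 12 and 24 h, and no test was made of them. The shares are of raw reads, without the TMM scaling used for CPM. In TMM-scaled CPM the PA and DMSO libraries differed less. At 24 h the SRSF sum was 1651 and 1590 CPM in PA libraries, against 2368 and 2416 CPM in DMSO libraries. The HNRNP sum was 12826 and 11230.5 CPM in PA libraries, against 14115 and 15289 CPM in DMSO libraries. None of these sums is corrected for GC content.

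**Figure D5:**
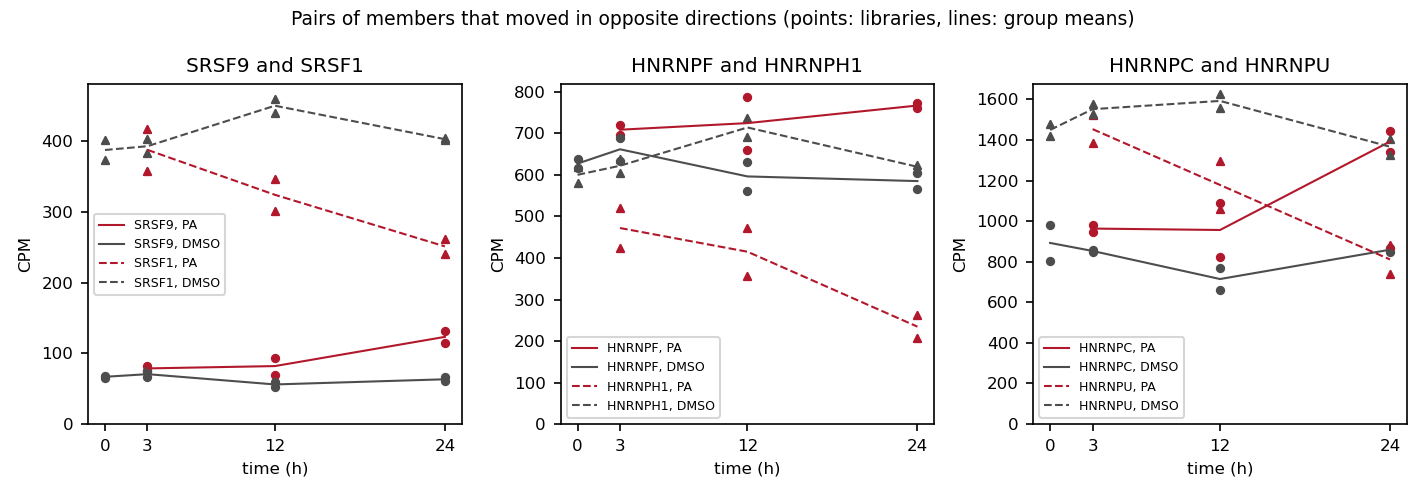
Level in CPM by time in hours for SRSF9 and SRSF1, HNRNPF and HNRNPH1, and HNRNPC and HNRNPU; red is PA, grey is DMSO, solid lines and circles the first gene of each pair, dashed lines and triangles the second. With PA the first gene of each pair is higher and the second lower than in DMSO at 24 h, in CPM not corrected for GC content.

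Within families, some genes parted with PA. These 3 pairs were chosen after their values were seen and carry no test, and their CPM are not corrected for GC content. After the GC and length correction at 24 h, SRSF1 (-0.05) and HNRNPU (-0.02) were not called. SRSF9 and HNRNPC stayed called higher (0.68 and 1.59), and HNRNPF and HNRNPH1 stayed called in opposite directions (0.43 and -1.45). The ratio of HNRNPF to HNRNPH1, in CPM, was 2.89 and 3.75 in PA libraries and 0.919 and 0.97 in DMSO libraries at 24 h. SRSF9 stood to SRSF1 at 0.441 and 0.545 in PA libraries and 0.151 and 0.163 in DMSO libraries at 24 h. HNRNPC stood to HNRNPU at 1.63 and 1.82 in PA libraries and 0.639 and 0.619 in DMSO libraries at 24 h. At that time the more abundant of the pair in reads was HNRNPC with PA and HNRNPU with DMSO. In PA libraries the ratio was 0.682 and 0.645 at 3 h, and 1.03 and 0.633 at 12 h.

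The promoters of a gene that fell and a gene that rose in each family are printed to show how differently these genes begin. Each run is 300 bases around the annotated start, 50 of them after it, in RefSeq (GRCh38.p14), read 5′ to 3′ on the gene's strand. They are SRSF11 (chr1:70205446-70205745, plus strand), SRSF9 (chr12:120469699-120469998, minus strand), HNRNPDL (chr4:82430413-82430712, minus strand) and HNRNPC (chr14:21269393-21269692, minus strand). Capitals mark matches on either strand to any of 4 motifs. The GC box was searched as GGGCGG and the CCAAT box by the letters of its name. The TATA box was searched as TATAAA and the E-box as CACGTG.
SRSF11: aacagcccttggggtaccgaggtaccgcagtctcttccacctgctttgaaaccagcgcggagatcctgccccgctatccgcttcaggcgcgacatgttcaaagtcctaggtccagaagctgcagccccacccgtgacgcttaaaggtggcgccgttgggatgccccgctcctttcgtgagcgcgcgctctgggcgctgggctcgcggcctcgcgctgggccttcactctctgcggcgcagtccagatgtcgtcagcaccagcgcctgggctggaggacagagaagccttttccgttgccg
SRSF9: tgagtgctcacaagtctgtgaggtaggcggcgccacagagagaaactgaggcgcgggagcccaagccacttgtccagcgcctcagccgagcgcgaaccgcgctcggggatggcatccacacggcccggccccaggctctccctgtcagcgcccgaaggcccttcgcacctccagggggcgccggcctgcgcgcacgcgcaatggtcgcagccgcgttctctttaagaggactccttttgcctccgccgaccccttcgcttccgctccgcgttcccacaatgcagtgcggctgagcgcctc
HNRNPDL: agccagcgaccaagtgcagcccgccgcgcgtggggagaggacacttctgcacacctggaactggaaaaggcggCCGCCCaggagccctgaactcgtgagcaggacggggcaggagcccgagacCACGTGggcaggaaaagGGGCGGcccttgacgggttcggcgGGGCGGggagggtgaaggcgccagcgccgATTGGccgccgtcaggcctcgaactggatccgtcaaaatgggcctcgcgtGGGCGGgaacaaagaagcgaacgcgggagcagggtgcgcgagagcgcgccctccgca
HNRNPC: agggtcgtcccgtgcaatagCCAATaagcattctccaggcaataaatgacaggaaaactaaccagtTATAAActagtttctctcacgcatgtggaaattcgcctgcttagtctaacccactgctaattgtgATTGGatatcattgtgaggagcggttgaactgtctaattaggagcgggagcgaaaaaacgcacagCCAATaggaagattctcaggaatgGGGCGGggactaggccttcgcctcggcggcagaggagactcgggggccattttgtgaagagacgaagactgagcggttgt
Neither SRSF promoter held any of these motifs in its window. HNRNPC held 3 CCAAT boxes, 1 TATA box and 1 GC box, and HNRNPDL held 4 GC boxes, 1 CCAAT box and 1 E-box. All 31 members had a promoter in the table. A CCAAT box was found in 2 of 11 SRSF and 14 of 20 HNRNP promoters, and in 34.6% of all 35116 promoters of this length. A GC box was found in 4 SRSF and 16 HNRNP promoters and in 45% of all, and the E-box in 0 SRSF and 7 HNRNP promoters and in 7.26% of all. TATAAA was found in 1 SRSF and 3 HNRNP promoters (11.5% of all). The ETS core CCGGAAG was found in 2 and 3 (10.3%), and the cAMP response core TGACGTCA in none of the members (1.85% of all). None of the strings searched contains another. These matches are descriptions of letters, not of bound factors.

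With DMSO alone, members moved little over time. SRSF5 was the only 1 of 31 called between DMSO 12 h and DMSO 0 h, where 1.46% of all genes were called. None was called by edgeR between DMSO 24 h and DMSO 0 h (background 2.46%); 3 had an unadjusted p under 0.05, with a background of 17.2% (SRSF5, HNRNPL and HNRNPA1L2), and DESeq2 called HNRNPL. Whether the PA effect itself differed between times was tested as the difference of the PA minus DMSO changes. Between 12 h and 3 h edgeR called 0 of 31 members (background 2.79%), with 8 at an unadjusted p under 0.05 (background 23.3%), and DESeq2 called 0. Between 24 h and 12 h edgeR called 0 (background 0.422%), with SRSF6 (-0.50 ± 0.17, log2, SE) and HNRNPH1 (-0.62 ± 0.22) at an unadjusted p under 0.05 (background 9.66%), and DESeq2 called 0. The first of these counts of 0 did not hold without the second PA library at 12 h. That fit left 1 library in the group, the one with the steepest GC slope of all libraries (0.58). The share of all tested genes called in that fit is not given here. Without the first PA library at 12 h, which also left 1 library, the second contrast was -0.62 (log2) for SRSF6 and -0.81 for HNRNPH1.

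Genes that work with these families were counted from lists of splicing genes. The shares of all tested genes to read these counts against are 1.58% lower at 3 h, 24.1% lower and 24.4% higher at 12 h, and 27.5% lower and 27.2% higher at 24 h. After the correction they are 2.54% lower at 3 h, 17.6% lower and 22.5% higher at 12 h, and 22.4% lower and 27% higher at 24 h. Of 19 measured SR-related proteins, 3 were lower at 3 h, 12 lower and 1 higher at 12 h, and 14 lower and 1 higher at 24 h, with medians of -0.20, -0.52 and -0.79 (log2) against about -0.01, 0.01 and -0.01 over all tested genes. After the GC and length correction 5, 12 and 13 of them were lower and none higher, with medians of -0.16, -0.38 and -0.50. SREK1, an SR-like regulator, had 41.6 and 64.6 CPM in PA libraries, against 178 and 190.1 CPM in DMSO libraries at 3 h (log2 change -1.79 ± 0.21, SE; adjusted p = 0.000639, edgeR). It changed by -2.50 and -2.36 at 12 and 24 h (-1.31 and -1.27 corrected). PNN, an SR-like protein of nuclear speckles, had 68.9 and 86.6 CPM in PA libraries, against 364 and 399 CPM in DMSO libraries at 12 h (log2 change -2.30 ± 0.20; adjusted p = 5.89e-06; -1.57 corrected). LUC7L3, a partner of the U1 snRNP, had 76.7 and 114 CPM in PA libraries, against 528 and 605 CPM in DMSO libraries at 12 h (log2 change -2.57 ± 0.25; adjusted p = 1.1e-05; -1.47 corrected). The 3 h calls of PNN and LUC7L3 were lost without the first PA library (log2 changes -1.04 and -1.30, adjusted p = 0.101 and 0.121), and that of LUC7L3 also without the second DMSO library (-1.44, adjusted p = 0.0578).

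Of 12 kinases and import receptors of SR proteins, 1 was lower at 3 h, 7 lower and 2 higher at 12 h, and 6 lower and 2 higher at 24 h (3 higher and 5 lower, then 4 higher and 6 lower, after correction). Of all tested genes 48.5% were called at 12 h and 54.6% at 24 h, 24.1% and 27.5% lower. PRPF4B, a kinase of the tri-snRNP, had 33.6 and 54.5 CPM in PA libraries, against 186 and 189 CPM in DMSO libraries at 12 h (log2 change -2.09 ± 0.28, SE; adjusted p = 0.000122, edgeR). It was called lower at 3 h (-1.25, adjusted p = 0.0349), but not without the first PA library (-0.91, adjusted p = 0.561), the first DMSO library (-1.40, adjusted p = 0.112) or the second DMSO library (-1.07, adjusted p = 0.223). DYRK1B, a kinase of the DYRK family, had 282 and 321 CPM in PA libraries, against 55.1 and 58.7 CPM in DMSO libraries at 24 h (log2 change 2.40 ± 0.19; adjusted p = 2.13e-06; 1.59 corrected), while its relative DYRK1A had 10.3 and 12 CPM in PA libraries, against 26.5 and 26.5 CPM in DMSO libraries (log2 change -1.25 ± 0.18; adjusted p = 0.000116; -0.52 corrected). CLK3, which phosphorylates SR proteins, had 69.5 and 66.9 CPM in PA libraries, against 31.7 and 30 CPM in DMSO libraries at 24 h (log2 change 1.15 ± 0.15; adjusted p = 6.06e-05; 0.45 corrected).

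Of 9 measured hnRNP proteins that go under other symbols, 4 were lower and 3 higher at 12 h, and 4 lower and 2 higher at 24 h (3 and 3, then 3 and 4, after correction), beside 48.5% and 54.6% of all tested genes called in either direction. RALY, a close relative of HNRNPC, rose: it had 332 and 325 CPM in PA libraries, against 186 and 203 CPM in DMSO libraries at 24 h (log2 change 0.76 ± 0.15, SE; adjusted p = 0.000862, edgeR; 0.66 corrected). RBMX, or hnRNP G, had 125 and 117 CPM in PA libraries, against 234 and 239 CPM in DMSO libraries (log2 change -0.96 ± 0.12; adjusted p = 3.99e-05; -0.71 corrected). PTBP2, at no more than 10.3 CPM, changed by -2.68 at 12 h and -1.94 at 24 h, the second not called after correction (-0.64). PTBP3 changed by -1.12 at 12 h, and by 0.04 corrected, no longer called. Uncorrected, it stood at -0.71 without the first and -1.68 without the second PA library.

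The 37 snRNP and core spliceosome genes had calls in both directions. No gene of that list was called at 3 h by edgeR, with 10 at an unadjusted p under 0.05 (background 17.1%). At 12 h 13 were higher and 8 lower (median 0.29), and at 24 h 11 higher and 11 lower (median 0.16). Over all tested genes the medians were 0.01 and -0.01. The shares called lower at both times, and higher at 24 h, were near those of all tested genes (24.1% lower at 12 h, 27.5% lower and 27.2% higher at 24 h), and 24.4% of all genes were higher at 12 h. SNRPD2, an Sm ring protein, had 102 and 123 CPM in PA libraries, against 45.6 and 44.8 CPM in DMSO libraries at 24 h (log2 change 1.31 ± 0.19, SE; adjusted p = 0.000112, edgeR). SNRPA1 of the U2 snRNP had 73 and 59.6 CPM in PA libraries, against 117 and 118 CPM in DMSO libraries (log2 change -0.83 ± 0.14; adjusted p = 0.000359), and SF3B5 and U2AF2 were higher at 12 h (0.98 and 0.68) with CDC5L lower (-1.51). U2AF2 was not called after correction (0.03), and CDC5L stood at -1.0 without the first and -2.29 without the second PA library. After correction 9 genes of the list were higher and 8 lower at 12 h, and 8 higher and 11 lower at 24 h. The medians of the list were then 0.01 and 0.02, against 0.04 at each time over all tested genes.

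Of 16 other splicing regulators, 1 was lower at 3 h, 8 lower and 2 higher at 12 h, and 9 lower and 1 higher at 24 h. The medians were -0.31 at 12 h and -0.40 at 24 h, against 0.01 and -0.01 over all tested genes, of which 24.1% and 27.5% were lower. RBM25, which carries a domain rich in arginine and glutamate, was lower at 3, 12 and 24 h (-1.07, -1.85 and -1.90). Its 3 h call was lost without the first PA library (-0.85, adjusted p = 0.144), without the second DMSO library (-0.91, adjusted p = 0.0728) and after correction (-0.65, adjusted p = 0.0511). It had 98 and 86.7 CPM in PA libraries, against 315 and 374 CPM in DMSO libraries at 24 h (adjusted p = 4.35e-06, edgeR; log2 change -0.94 corrected). RBM39, CELF1 and RBM4 were lower too (-1.01 at 24 h, -0.63 at 12 h and -1.62 at 24 h). After correction 2 of the 16 were higher and 4 lower at 12 h, and 1 higher and 6 lower at 24 h. Of all tested genes 17.6% and 22.4% were then lower. The corrected medians of the list were -0.18 at 12 h and -0.17 at 24 h.

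Of 15 genes of nonsense-mediated decay and the exon junction complex, the route that removes the decay-prone SR and hnRNP transcripts, 2 were lower at 3 h, 6 lower and 1 higher at 12 h, and 6 lower and none higher at 24 h (3 lower, 6 lower and 1 higher, and 5 lower and 1 higher after correction). The share called in either direction was near that of all tested genes at 12 h (48.5%) and below it at 24 h (54.6%). The share called lower was above that of all tested genes at 3, 12 and 24 h (1.58%, 24.1% and 27.5%). After correction it was above it too (2.54%, 17.6% and 22.4%). UPF3B had 56.6 and 51.4 CPM in PA libraries, against 293 and 352 CPM in DMSO libraries at 24 h (log2 change -2.58 ± 0.22, SE; adjusted p = 3.03e-06, edgeR; -2.07 corrected). UPF2 changed by -1.06, -1.97 and -1.87 at 3, 12 and 24 h, and SMG1, the kinase of UPF1, by -1.48 and -1.48 at 12 and 24 h. The 3 h call of UPF2 was lost without the first PA library (-0.82, adjusted p = 0.556), without the first DMSO library (-1.13, adjusted p = 0.13) and without the second (-0.96, adjusted p = 0.195). The median of the decay list stayed near that of all genes, at -0.06 at 12 h and -0.11 at 24 h.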

How the data were processed

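Paired-end reads of 151 nt came from a NextSeq 500, per the labels. The deposited counts are whole reads per gene for 28120 genes, and the deposited RPKM values, scaled for length and depth, were made by the authors for 25447 genes. TopHat2, edgeR and GRCh38 are named in the submitters' processing notes; the counting tool, annotation release and strand setting were not given in the sources used here, so genes that overlap another (19 of 31 members, 10 with a protein-coding gene) or have near-identical copies may hold reads of their neighbours or copies.

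Counts were fitted with edgeR 4.0.16 in R 4.3.3: TMM, filterByExpr by group (15181 genes), quasi-likelihood, 1 mean per group over all 14 libraries, 7 residual degrees of freedom, two-sided, Benjamini-Hochberg over all tested genes, threshold 0.05. The coefficient of variation between replicates was 15.1%, and no libraries were duplicates. The SE is the log2 change divided by the square root of F. A count of 0 allows up to 3 reads, counting error only. For the correction, trends on GC content and log2 length of the longest basic transcript in GENCODE 29 (natural splines, 5 degrees of freedom, 99.3% of genes) entered as offsets. The fit was tested on simulated data. One leukocyte marker is not reported here.

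Each member could be named; per-library values were given for the 4 genes per family with the largest called change at each PA time and for SRSF1, SRSF3, HNRNPC and HNRNPK, and for up to 3 called genes with the smallest p of each companion list. The members, lists and tests were chosen with earlier results of these data known. Alternatives were DESeq2 1.42.0, its size factors, other filters, a replicate block, the 4 libraries of a comparison alone, limma 3.58.1 on log2(RPKM + 1) and log2(RPKM + 0.1), the GC corrections, and leaving out each library. GC content alone, the share of RPKM and some settings for the time contrasts were added after seeing the data.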

Additional observations from a re-analysis of the deposited data

Results flagged for a closer look

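The PA effect on DYRK1B, a kinase from the list of kinases and import receptors, differed between 12 h and 3 h by a log2 change of 1.84, by the edgeR test of the difference itself. At 12 h DYRK1B had 266 and 166 CPM in PA libraries, against 45.6 and 40.8 CPM in DMSO libraries, a log2 change of 2.32 ± 0.19 (SE). Why the effect differed was not tested.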

How the results depend on the processing

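Counts called were within 1.5 times of those reported under most settings; where they were not, the values follow and the cause was not tested, except that fits of 4 libraries have fewer residual degrees of freedom. For SRSF genes at 3 h (1 called) there were 2 after the GC and length correction and 2 after correction for GC alone. There were 0 with log2(RPKM + 0.1) or unfiltered log2(RPKM + 1). Of 15181 tested genes 656 and 609 were called after these corrections, against 261 without. On these RPKM scales 123 of 11040 and 92 of 25447 were called. With the 4 libraries of 12 h alone, 3 of 10 tested SRSF genes (8 of 11 with all) and 2 HNRNP genes (9 with all) were called. Calls over the whole table fell too, to 3671 of 14156 tested genes (7363 of 15181 with all). After the GC and length correction 14 HNRNP genes were called at 12 h, beside 6098 of 15181 tested genes. At 24 h, 16 HNRNP genes (10 from counts) were called on each of the 3 RPKM scales. Of all genes on these scales, 7201 and 7143 of 11040 with the filter and 7608 of 25447 without it were called. DMSO at 12 h minus 0 h (1 called) had 2 with DESeq2, 2 with unfiltered RPKM and 3 with 4 libraries. Of all tested genes 679 of 15181, 160 of 25447 and 2850 of 14121 were called in these fits, against 221 of 15181 in the main fit. DMSO at 24 h minus 0 h (0 called) had 1 with DESeq2 and 1 with unfiltered RPKM. It had 2 with 4 libraries, after either GC correction or with the block and correction. Of all tested genes 774 of 15181 were called with DESeq2, 404 of 25447 with unfiltered RPKM and 2644 of 14258 with 4 libraries. After the GC and length correction 1374 of 15181 were called, for GC alone 1385 and with the block 1210, against 373 in the main fit. The difference of PA effects at 12 and 3 h (0 called) had 1 after the GC and length correction, with or without the block, and 1 with unfiltered RPKM. Of all tested genes 928 of 15181 with the block, 1056 without it and 234 of 25447 with unfiltered RPKM were called. The difference at 24 and 12 h had 1 with unfiltered RPKM, beside 148 of 25447 genes. The SRSF share of reads at 24 h differed by -0.122 percentage points (PA minus DMSO), and by -0.103 as a share of summed RPKM.

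Leaving out 1 library gave 0 to 1, 6 to 8 and 7 to 8 SRSF genes and 0 to 0, 3 to 12 and 6 to 10 HNRNP genes at 3, 12 and 24 h, 0 to 0 for both DMSO contrasts, and 0 to 11 and 0 to 2 for the differences of PA effects.

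Whether same-numbered libraries were paired is not given, and the main fit treated them as unpaired. Residuals of 2 of 21 group pairs correlated over 0.1 (range -0.22 to 0.24). With 2 libraries a group, these correlations cannot tell whether the libraries were paired. With the replicate block 1, 8 and 8 SRSF genes and 0, 9 and 9 HNRNP genes were called at 3, 12 and 24 h. Uncorrected, the block moved no count of calls by over 1.5 times, and changed 1 call among members (HNRNPAB at 24 h, adjusted p = 0.0644). With the GC and length correction it moved SRSF calls at 3 h to 1 (2 without it) and HNRNP calls to 12 at 12 h and 12 at 24 h (14 and 13 without it). The calls lost there were SRSF3 at 3 h (0.0617), HNRNPU and HNRNPF at 12 h (0.0618 and 0.0631) and HNRNPD at 24 h (0.0531), all adjusted p.

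The direction of these log2 changes (PA minus DMSO) turned after the GC and length correction, with and without the block at the same rounded value unless given: at 12 h 0.18 (0.17 with the block) for SRSF1, 0.47 for SRSF10, 0.39 for SRSF6, 0.44 for HNRNPA0, 0.37 (0.36 with the block) for HNRNPA2B1, 0.80 (0.79 with the block) for HNRNPA3, 0.38 for HNRNPH2, 0.24 for HNRNPH3, 0.69 (0.68 with the block) for HNRNPLL, 0.71 for HNRNPR, 0.29 for HNRNPU, -0.24 for HNRNPUL1, 0.037 (0.039 with the block) for PTBP3; at 24 h 0.50 for SRSF10, 0.69 (0.70 with the block) for SRSF3, 0.30 for HNRNPA0, 0.32 for HNRNPA2B1, 0.76 for HNRNPA3, 0.44 (without the block) for HNRNPD, 0.82 (0.83 with the block) for HNRNPLL, -0.37 for HNRNPM, 0.17 for HNRNPR. On the RPKM scales HNRNPK was -0.31 and HNRNPM -0.32 at 24 h, with either pseudocount and without the filter.

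Low depth limits SRSF12 and HNRNPA1L2, and 2 libraries a group limit every member.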
